A study of Homo sapiens with 4 samples.

Results

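A set of 8 genes usually tied to neurons and to the pigment cell lineage was followed across 4 RNA-seq libraries of OVCAR3 cells: NEUROD6, SOX10, FOXD3, MITF, MLANA, PMEL, GRIN2A and CHRM2. They are 8 of the 62696 gene rows in each library's table. The genes were chosen by their measured values, because several of them stood high in the wild-type library alone, so their levels are given as a description with no test. OVCAR3 is an established human cell line from a high-grade serous ovarian carcinoma. The KD group holds 3 libraries (KD 1, KD 2 and KD 3, called sets in the labels) from OVCAR3 cells with an shRNA knockdown of ANAPC1P2, a pseudogene copy of the cell cycle gene ANAPC1. The WT group holds 1 library from OVCAR3 cells without the knockdown. Both were grown in the same medium, and no library is labelled as carrying a non-targeting hairpin, so an effect of carrying a hairpin and one of losing ANAPC1P2 cannot be told apart. The labels do not say whether the 3 sets were separate cultures or separate hairpins. The p-values below therefore cover only how these 3 libraries vary, and that variation may be technical.

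The genes sit at different steps of related programmes. In vertebrate embryos FOXD3 and SOX10 are transcription factors of the neural crest, the migratory cell population that gives rise to melanocytes, peripheral glia and peripheral neurons. In the melanocyte branch SOX10 activates MITF, the basic helix-loop-helix factor that directs pigment cell fate, and MITF in turn drives pigment genes. MLANA (Melan-A) and PMEL are proteins of the melanosome, the organelle in which melanin is made, and PMEL forms the fibrils on which the pigment is laid down. NEUROD6 is a basic helix-loop-helix factor of differentiating cortical neurons. GRIN2A encodes a glutamate-binding subunit of the NMDA receptor, and CHRM2 encodes a muscarinic acetylcholine receptor known from heart and brain. None of these is a defining gene of the ovarian surface or of serous carcinoma.

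Promoter sequence for 6 of the 8 genes was found in RefSeq on GRCh38.p14, with 10 transcript starts in all. Each window ran from 250 bases before a start to 50 bases after it. The stretches below lie outside the exons annotated in GENCODE 29, run 5′ to 3′ on the gene's own strand, and are shown because FOXD3 and MITF are regulators whose values did not follow those of SOX10 and MLANA. Capitals mark the cyclic AMP response element TGACGTCA, the E-box CACGTG that factors of the MITF family bind, and the SOX motif ACAATG.
FOXD3, chr1:63322459-63322566, plus strand: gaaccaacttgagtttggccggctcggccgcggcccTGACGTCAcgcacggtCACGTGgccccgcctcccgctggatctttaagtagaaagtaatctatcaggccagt
MITF, first start, chr3:69739214-69739434, plus strand: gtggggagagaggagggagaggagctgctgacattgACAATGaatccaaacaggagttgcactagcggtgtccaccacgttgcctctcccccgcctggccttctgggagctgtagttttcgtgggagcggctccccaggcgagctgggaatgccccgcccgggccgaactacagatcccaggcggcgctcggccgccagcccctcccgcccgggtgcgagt
MITF, start of the melanocyte form, chr3:69936342-69936586, plus strand: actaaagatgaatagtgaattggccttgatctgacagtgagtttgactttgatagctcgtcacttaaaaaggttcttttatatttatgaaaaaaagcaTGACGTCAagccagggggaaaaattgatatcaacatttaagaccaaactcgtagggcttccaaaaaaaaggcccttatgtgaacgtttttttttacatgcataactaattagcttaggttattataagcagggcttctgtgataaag
MLANA, chr9:5890639-5890801, plus strand: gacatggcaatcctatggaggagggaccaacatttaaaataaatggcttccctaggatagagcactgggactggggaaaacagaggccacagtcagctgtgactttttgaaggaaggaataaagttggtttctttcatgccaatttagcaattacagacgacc
NEUROD6, chr7:31340895-31340976, minus strand: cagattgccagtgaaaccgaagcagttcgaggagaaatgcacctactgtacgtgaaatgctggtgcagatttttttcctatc

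The palindrome TGACGTCA was present in 3 of the 10 windows. It lay 72 bases before the FOXD3 start, 152 bases before the start of the melanocyte form of MITF and 54 bases before the NEUROD6 start, where the match falls within an exon of the GENCODE annotation and so outside the stretch printed. The same letters were found in 1.85% of the 35116 RefSeq promoter windows of this length. CACGTG, which was in 7.26% of all windows, lay 56 bases before the FOXD3 start. The SOX motif ACAATG (10.8% of all windows, either strand) lay 214 bases before the first MITF start. CATGTG (11.1%, either strand) lay 75 bases before the NEUROD6 start, and ACAAAG (16.1%, either strand) was in the windows of FOXD3 and of the second MITF start. The MLANA window held none of the 5 motifs searched, nor did those of CHRM2 and GRIN2A. These matches describe letters in a window and say nothing of binding, and the values of all MITF forms are counted together below.

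The depth was 48443589, 56216398 and 42871815 gene reads for KD 1, KD 2 and KD 3, against 27868718 for WT. The KD libraries had reads in 31661, 32823 and 31014 genes, and the WT library had reads in 36832 genes at its lower depth. Values are the normalized read counts that the authors deposited, which are whole reads divided by 1 factor per library. A count of 3 reads, used as the floor where a group had no read, equals 0.926 normalized counts over the KD group and 3.33 in WT. Intervals are exact 95% intervals for reads and cover counting error only. No molecular identifiers are described, so copies of the same molecule may be counted more than once and the intervals may be too narrow. Ovarian and epithelial genes were expressed in every library, and their levels differed in both directions. The epithelial gene EPCAM had 6363 ± 505 normalized counts in KD (SD, n = 3) and 2631 in WT. KRT8, a keratin gene, had 21908 ± 917 in KD and 9468 in WT, and WT1 had 2048 ± 258 in KD and 2281 in WT. MUC16, the CA125 antigen of ovarian carcinoma, had 28927 ± 5655 normalized counts in KD (SD, n = 3) and 458890 in WT, and PAX8, a factor of the Müllerian epithelium, had 19884 ± 1521 in KD and 62685 in WT. ANAPC1P2 itself was rare, at 5.81 ± 5.04 normalized counts in KD and 15.6 in WT, below the level required for the test.

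Together the 8 genes summed to 542.1, 528.4 and 492.5 normalized counts in KD 1, KD 2 and KD 3, against 4903 in WT. The WT value lay above all 3 KD values for 6 of the 8 genes and below all 3 for MITF and FOXD3. Among the 23344 genes that averaged at least 10 normalized counts, the WT library stood above all 3 KD libraries for 52.2% and below all 3 for 40.0%. Among the 14464 protein-coding genes of these the shares were 36.7% and 55.7%. The genes were chosen on this contrast, so nothing is read from their count. All 8 passed the level of 10, several of them only through WT. High values in WT alone thus describe NEUROD6, SOX10, GRIN2A and CHRM2, in part MLANA, and not MITF or FOXD3.

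**Figure D1:**
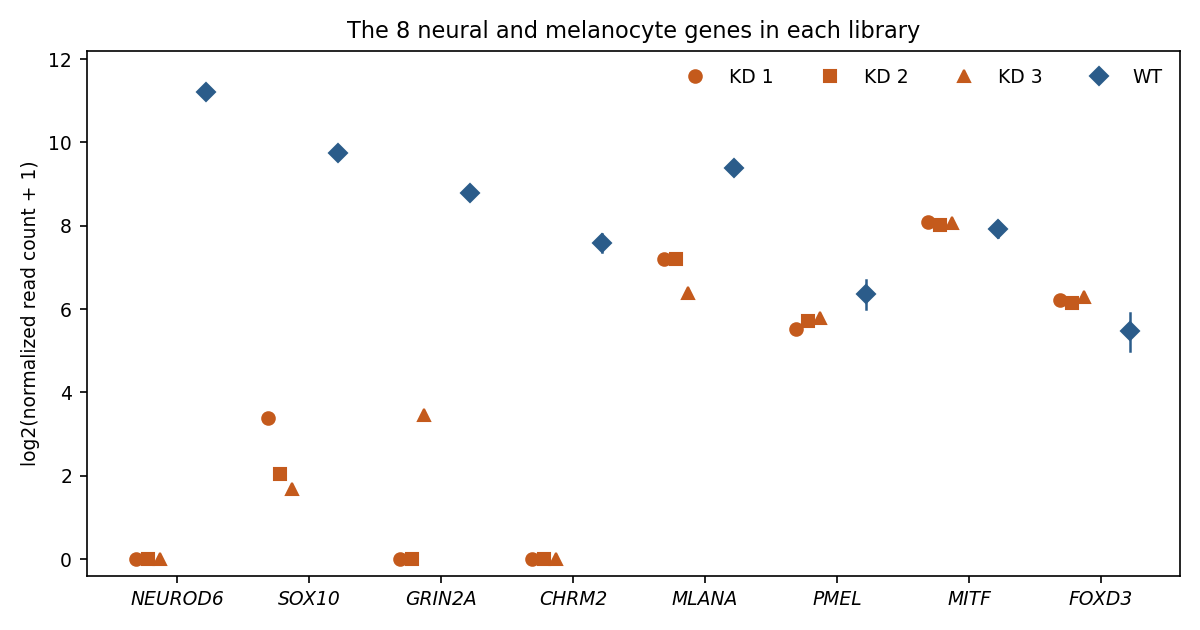
Normalized read counts of the 8 genes on a log2(value + 1) scale, with 3 KD libraries as orange symbols and the WT library as a blue diamond whose bar is its 95% counting interval (hidden where shorter than the symbol). NEUROD6 and CHRM2 had no read in KD and 2374 and 192.2 normalized counts in WT, while the KD points of MITF and FOXD3 lie above WT.

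NEUROD6 (ENSG00000164600, chromosome 7, 31337461 to 31340894, minus strand) had no read in KD 1, KD 2 or KD 3, and 2137 reads or 2374 normalized counts in WT. The groups did not overlap, and 3 reads over the KD libraries put the level in KD at least 2565-fold lower. NEUROD6 alone made up 48.4% of the summed WT level of the 8 genes. Per kilobase of exon the WT level stood above that of 96.2% of protein-coding genes. In all, 787 protein-coding genes had reads in WT and none in KD, and 22 of these reached 100 normalized counts in WT. NEUROD6 was the 2nd highest of the 22, after HBB, the beta-globin gene of red cells, with 12412 normalized counts.

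The SOX10 gene (ENSG00000100146, chromosome 22, 37970686 to 37987422, minus strand) had 9.48, 3.11 and 2.22 normalized counts in KD 1, KD 2 and KD 3, against 859.7 in WT. These rest on 10, 4 and 2 reads in KD and 774 in WT. All KD libraries thus held a trace and WT stood far above them, with the pooled KD level 174-fold lower (95% counting interval 107 to 306). KD 1 held most of the KD reads, and without it the level in KD was 313-fold lower.

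For FOXD3 (ENSG00000187140, chromosome 1, 63323041 to 63325126, plus strand) the order was the other way round, at 73.9, 69.9 and 77.8 normalized counts in KD 1, KD 2 and KD 3, against 43.3 in WT. The 3 KD values lay close together and above WT. The pooled KD level was 169.5% of WT (interval 120.4% to 244.3%). With each library scaled to the same total the KD level came to 115.3% of WT, with an interval of 81.9% to 166.2% that includes no difference.

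MITF (ENSG00000187098, chromosome 3, 69739435 to 69968337, plus strand) differed least, with 269.2, 258.8 and 265.7 normalized counts in KD 1, KD 2 and KD 3, against 241.0 in WT. The KD level was 109.6% of WT (interval 94.3% to 127.8%) as deposited. Its direction turned with equal library totals, where KD stood at 74.5% of WT (interval 64.1% to 86.9%). This scaling lowers the KD minus WT difference of the median tested gene by 0.56 on the log2 scale, and the MITF difference was -0.43 with it and 0.13 as deposited. Only FOXD3 then remained higher in all 3 KD libraries than in WT.

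The melanosome gene MLANA (ENSG00000120215, chromosome 9, 5890802 to 5910606, plus strand) was read in every library, at 145.0, 145.3 and 82.3 normalized counts in KD 1, KD 2 and KD 3, against 670.9 in WT. KD 3 stood apart from the other two, as its counting interval of 64.6 to 103.3 lies below those of KD 1 (122.9 to 169.9) and KD 2 (125.2 to 167.7). The pooled KD level was 19.0% of WT (interval 16.8% to 21.6%), or 5.25-fold lower.

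PMEL (ENSG00000185664, chromosome 12, 55954105 to 55973317, minus strand) had 44.5, 51.3 and 54.5 normalized counts in KD 1, KD 2 and KD 3, against 81.1 in WT. The groups did not overlap, but the intervals of KD 2 (39.7 to 65.3) and KD 3 (40.3 to 72.0) reach into that of WT (63.6 to 101.9). The pooled KD level was 61.6% of WT, with an interval of 46.5% to 82.4%.

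Among the receptor genes, GRIN2A (ENSG00000183454, chromosome 16, 9753404 to 10182754, minus strand) had 0, 0 and 10.0 normalized counts in KD 1, KD 2 and KD 3, against 440.9 in WT. All 9 KD reads came from KD 3. The pooled level in KD was 159-fold lower (interval 82.8 to 350), and without KD 3 it was at least 344-fold lower.

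CHRM2 (ENSG00000181072, chromosome 7, 136868669 to 137020255, plus strand) had no read in the KD libraries and 173 reads, or 192.2 normalized counts, in WT. The KD level was at least 208-fold lower, and CHRM2 ranked 8th of the 22 protein-coding genes described for NEUROD6. In these bulk libraries, fewer cells with a transcript and less of it per cell cannot be told apart.

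Levels per kilobase of exon put the 8 genes in nearly the same order as the counts. Only GRIN2A and MITF changed places in WT, and only MITF and MLANA in KD. In WT, NEUROD6 stood at 1114 normalized counts per kilobase, followed by SOX10 at 231.7 and MLANA at 217.6. MITF (33.6), GRIN2A (26.4), CHRM2 (23.1), PMEL (20.8) and FOXD3 (20.8) lay within a narrow band well below them. Averaged over KD, MLANA (40.3 per kilobase), MITF (36.8) and FOXD3 (35.4) came first, PMEL followed at 12.8, and SOX10 (1.33), GRIN2A (0.20) and the unread NEUROD6 and CHRM2 stood at or near 0. The reads per library behind the lowest of these are too few to order them.

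The relatives of these genes gave no common pattern. Their calls come from limma-trend on log2(normalized count + 1), with Benjamini-Hochberg adjustment over all genes tested and a threshold of 0.05. By this rule 36.3% of all tested genes were lower in KD and 31.4% higher, and among protein-coding genes 24.7% were lower and 45.9% higher. The median KD minus WT difference was -0.28 on the log2 scale over all tested genes and 0.28 over the protein-coding ones. Of the 61 genes outside the 8 that were called and fall under the naming rule, 16 lost their call with no filter on low values. They were TFEB, GRIN3B, CHRM5, CHRNA5, CHRNA10, GRIK1, EDNRB, CAPN3, SNAI2, CAMK2A, SNAP25, MAP2, SLC1A2, MSLN, CDH1 and ENSG00000234352, and their calls rest on the filter.

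No other NeuroD gene had more than 4 reads in a library. NEUROD1 had no read in KD and 2 reads in WT, NEUROD2 had 4 reads over KD and 2 in WT, and NEUROD4 had none in any library. The proneural factors NEUROG1 and NEUROG2, which act before the NeuroD factors in developing neurons, had no more than 6.66 normalized counts in any library.

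Of the SoxE factors that are closest to SOX10, SOX8 had no read in KD and 15.5 normalized counts in WT. SOX9, a factor of cartilage, neural crest and many epithelia, was higher in KD, at 538 ± 39.7 normalized counts against 211.0 in WT (log2 difference 1.34, SE 0.15, limma adjusted p = 0.00045). SOX10 and SOX9 therefore stood on opposite sides of WT.

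In the FOXD family FOXD1 was higher in KD, at 803 ± 15.3 normalized counts (SD, n = 3 libraries) against 450.9 in WT (limma adjusted p = 0.0011), but lost this call with equal library totals (adjusted p = 0.0657). FOXD2 stood at 26.6 ± 5.29 in KD and 40.0 in WT and FOXD4 at 63.6 ± 15.6 in KD and 66.6 in WT, and neither was called. Of the MiT/TFE factors, which share the DNA-binding domain of MITF, TFEB was lower in KD at 112.5 ± 23.5 against 247.7 in WT (log2 difference -1.15, limma adjusted p = 0.0143). The TFEB call was lost without KD 2 (adjusted p = 0.0576). TFE3, at 1126 ± 117 in KD and 915.2 in WT, and TFEC, at 18.7 ± 4.04 in KD and 13.3 in WT, were not called.

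Most of the GRIN2A family stood lower in KD. Of the other 6 NMDA receptor subunits, 4 were lower in KD and none was higher. GRIN2B, the embryonic counterpart of GRIN2A in the forebrain, had 1308, 1529 and 1333 normalized counts in KD 1, KD 2 and KD 3, against 4190 in WT (log2 difference -1.59, SE 0.12, limma adjusted p = 0.00011). GRIN2D had 200.6 ± 4.49 in KD and 646.4 in WT, GRIN2C had 36.6 ± 4.95 in KD and 159.9 in WT, and GRIN3B had 71.1 ± 12.3 in KD and 173.3 in WT. GRIN1, the subunit that every NMDA receptor needs, was low in all libraries, at 26.8 ± 6.61 in KD and 41.1 in WT, and like GRIN3A (31.9 ± 4.14 in KD, 42.2 in WT) was not called. GRIN2B had many reads in both groups, unlike GRIN2A with its 9 KD reads. These spread over 30941 exonic bases, so that GRIN2B stood at 44.9 normalized counts per kilobase in KD and 135.4 in WT.

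The muscarinic receptors were split. CHRM5 was lower in KD at 33.2, 23.3 and 8.89 normalized counts in KD 1, KD 2 and KD 3, against 147.7 in WT (limma adjusted p = 0.0125), a call lost without KD 2 (adjusted p = 0.0612). CHRM3, the muscarinic receptor of glands and smooth muscle, was the abundant one at 1000.8 ± 52.1 in KD and 820.8 in WT and was not called, nor was CHRM4 at 17.0 ± 2.80 in KD and 27.8 in WT. CHRM1 had 4 reads over KD and 1 in WT.

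**Figure D2:**
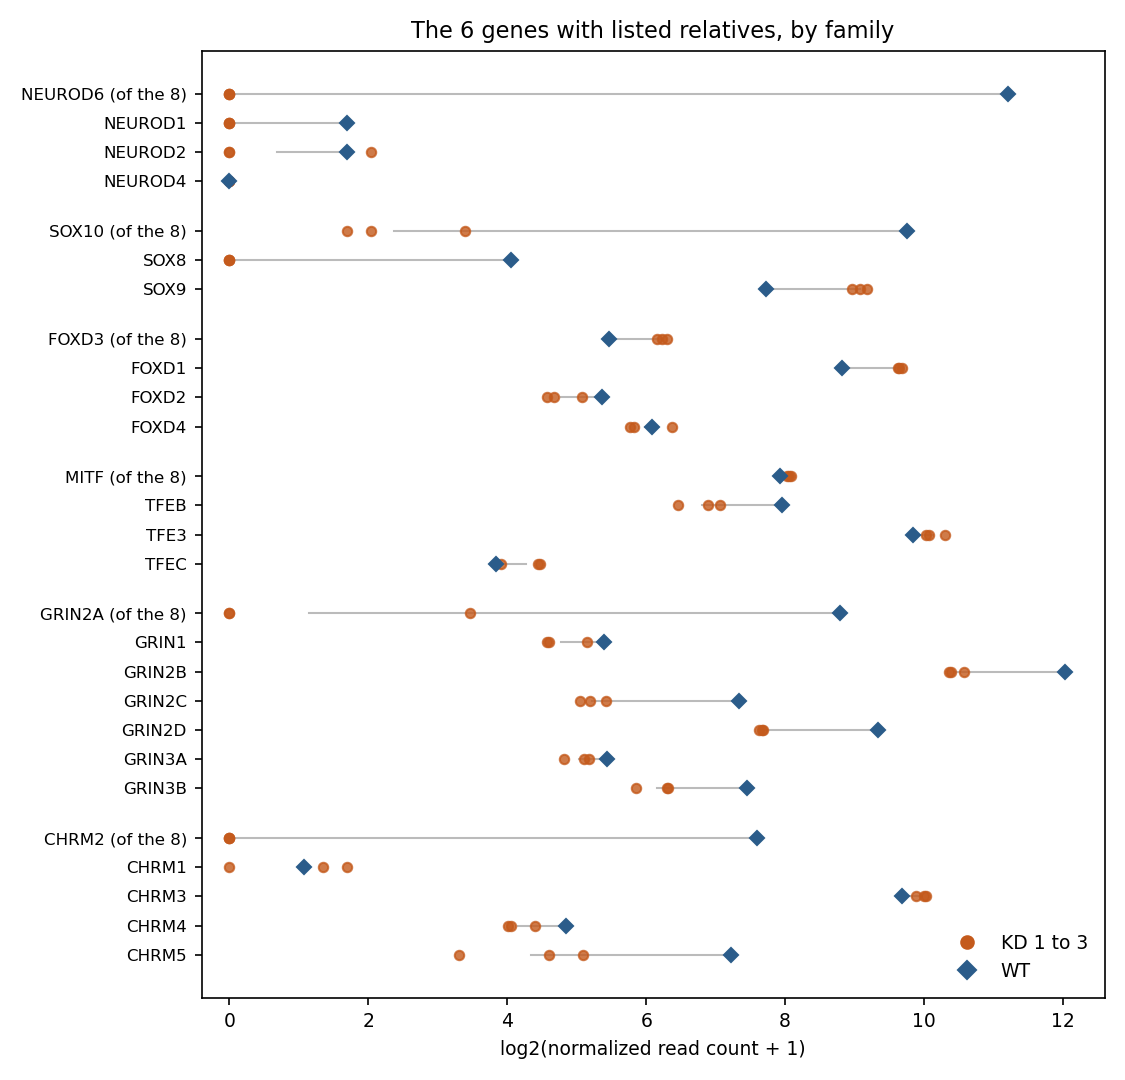
Log2(normalized read count + 1) of NEUROD6, SOX10, FOXD3, MITF, GRIN2A and CHRM2 (marked "of the 8") above the other genes of their families. Orange points are the 3 KD libraries, the blue diamond is WT, and the grey line joins the KD mean to WT. GRIN2B, GRIN2C, GRIN2D and GRIN3B lie left of WT in all KD libraries, SOX9 and FOXD1 lie right of it, and the NeuroD relatives stay near 0.

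Genes that overlap or adjoin the 8 on the chromosome went both ways. SOX10 lies inside POLR2F, an RNA polymerase subunit gene on the other strand that shares 89 exonic bases with it. POLR2F was higher in KD, at 1385 ± 85.7 normalized counts against 693.1 in WT (log2 difference 1.00, limma adjusted p = 0.000518), the reverse of SOX10. MLANA lies inside KIAA2026, also on the other strand and with no exonic base in common. KIAA2026 was lower in KD by less, at 5595, 5722 and 5505 in KD 1, KD 2 and KD 3, against 7924 in WT (log2 difference -0.50, adjusted p = 0.00396), and it did not share the low value of MLANA in KD 3. That call was lost with median-of-ratios scaling (adjusted p = 0.0728).

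PMEL overlaps CDK2, the cell cycle kinase gene on the other strand, by 89 exonic bases. CDK2 was higher in KD, at 2875 ± 100.0 normalized counts against 1154 in WT (log2 difference 1.32, limma adjusted p = 9.86e-05). DGKA, a lipid kinase gene that ends 77 bases from PMEL, was lower at 346 ± 4.04 in KD and 803.0 in WT (log2 difference -1.21, adjusted p = 0.000429). On the other side RAB5B, a gene of endosome transport, was higher at 6741 ± 556 in KD and 4282 in WT (log2 difference 0.65), but by 0.09 and without a call with equal library totals.

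SAMMSON, a long non-coding RNA gene that lies 31212 bases beyond MITF on the same strand and is known from melanoma, had 66.3, 86.3 and 65.6 normalized counts in KD 1, KD 2 and KD 3, against 323.2 in WT. It was lower in KD by a log2 difference of -2.15 (SE 0.29, limma adjusted p = 0.000926), while its neighbour MITF stood at 109.6% of WT as deposited. FOXD3-AS1, which shares 179 exonic bases with FOXD3 on the other strand, missed the threshold with 96.6 ± 11.1 in KD and 58.9 in WT (limma adjusted p = 0.0725, log2 difference 0.70). The labels do not say whether reads were counted by strand, so the reads of such overlapping pairs may not be fully separated.

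Around CHRM2, the antisense gene ENSG00000234352 had 0, 3.11 and 0 normalized counts in KD 1, KD 2 and KD 3, against 111.1 in WT, and was lower in KD (log2 difference -6.13, SE 1.05, limma adjusted p = 0.00273), a call that DESeq2 did not make (adjusted p = 0.13). The next gene on the CHRM2 strand at higher coordinates, the pseudogene ENSG00000224469, had no read in KD and 22.2 normalized counts in WT. Inside GRIN2A, the pseudogene IMPDH1P11 and the antisense genes ENSG00000261810 and ENSG00000283221 had reads in WT alone, 16, 8 and 1. The nearest genes to NEUROD6 on either side had no read in any library.

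**Figure D3:**
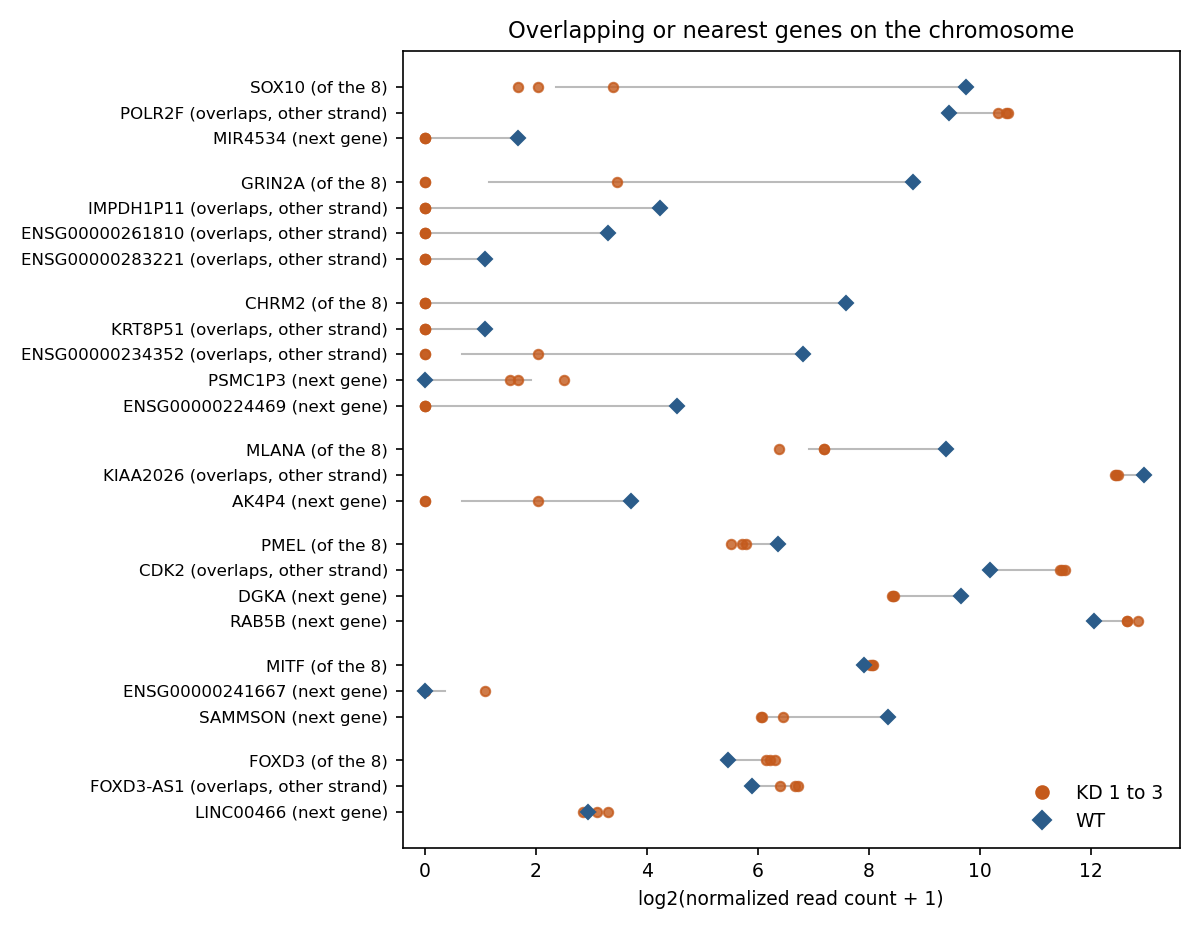
Log2(normalized read count + 1) of 7 of the 8 genes (marked "of the 8") and of those overlapping or nearest genes that had a read in any library. Orange points are the 3 KD libraries, the blue diamond is WT, and the grey line joins the KD mean to WT. POLR2F and CDK2 lie right of WT, opposite to SOX10 and PMEL, and SAMMSON lies left of WT beside a level MITF.

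The genes whose values over the 4 libraries were most like each of the 8, by Euclidean distance of log2 values among protein-coding genes, came from varied tissues. For NEUROD6 they were HBA2 (alpha-globin; distance 0.45), FAM20C (2.21) and HBB (2.39), each with no read in KD. For CHRM2 they were TRIM58 (0.05), HLA-DRB1 (0.06) and CELF2 (0.11), also unread in KD. The closest to SOX10 were the protease genes MMP16 (1.60) and ADAM12 (2.11) and the kinase gene PRKG1 (2.14), and those closest to GRIN2A were H1-5 (1.85), BACE2 (2.24) and CDH13 (2.29). Such distances rest on 4 values per gene and on counts of a few reads in KD. The genes were picked on these same values, so a shared lack of KD reads comes with the choice.

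MLANA was nearest to NPR2 (distance 0.26), CCDC28B (0.31) and SLC16A4 (0.35). All of them had their lowest value in KD 3, which the choice by distance favours. NPR2, a receptor for natriuretic peptides, had 162.1, 146.9 and 94.5 normalized counts in KD 1, KD 2 and KD 3, against 697.5 in WT. PMEL was nearest to SLC25A32 (0.17), MDGA1 (0.25) and HAAO (0.26), MITF to POGLUT2 (0.12), KBTBD6 (0.13) and DNAAF10 (0.14), and FOXD3 to OPLAH (0.16), FLI1 (0.25) and TMEM52 (0.29).

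The wider programmes were described with lists of genes other than the 8. Over all tested protein-coding genes 24.7% were lower in KD and 45.9% higher, with a median log2 difference of 0.28. Some listed genes reached the mean of 10 only through the group where they are high, so that the filter in part sets a list's counts and median. They are given with each list. In the melanocyte list 22 of 31 genes were tested, and 13 were lower in KD and 5 higher, with a median log2 difference of -0.61. EDNRB and S100B, 2 of the lower genes, were tested only through WT. The pigment enzymes that define melanin synthesis were near 0 in both groups: TYR, the first enzyme of the pathway, had 5.69, 4.66 and 0 normalized counts in KD and 0 in WT. TYRP1 had 1.90, 3.89 and 8.89 in KD and 2.22 in WT, and DCT had 3.79, 0 and 0 in KD and 14.4 in WT.

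All 4 listed surface receptors of melanocytes, MC1R, KIT, EDNRB and ERBB3, were lower in KD. ERBB3 was abundant in both groups and differed least, at 4206 ± 142 normalized counts in KD and 6541 in WT (log2 difference -0.64). MC1R, the receptor for melanocyte-stimulating hormone, had 15.4 ± 2.39 normalized counts in KD and 102.2 in WT (log2 difference -2.67, limma adjusted p = 0.00299), and EDNRB, the endothelin receptor of melanoblasts, had 0, 0 and 4.45 in KD 1, KD 2 and KD 3, against 52.2 in WT (adjusted p = 0.0105). The EDNRB call was lost without KD 2 (adjusted p = 0.0504), with DESeq2 (0.331) and with no filter (0.1). S100B, a calcium-binding protein of glia and melanocytes, had the largest difference of the list, at 1.90, 4.66 and 2.22 in KD and 304.3 in WT (log2 difference -6.35, SE 0.67). CAPN3 was lower at 21.6 ± 14.3 in KD and 107.7 in WT, a call lost without KD 1 (adjusted p = 0.0606) and without KD 3 (0.0666).

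Of 5 tested genes listed together for transport to or of melanosomes, 3 were higher in KD. MLPH was lower (230 ± 38.7 normalized counts in KD, 540.9 in WT) and MYO5A was not called. RAB32 had 479 ± 66.3 normalized counts in KD and 88.9 in WT (log2 difference 2.41, limma adjusted p = 0.000133), and RAB38 had 201 ± 13.0 in KD and 85.5 in WT (adjusted p = 0.00287). RAB27A was the third of them, at 693 ± 61.9 in KD and 325.4 in WT. Outside this group MREG, at 2949 ± 267 in KD and 1155 in WT, was higher as well. The biogenesis gene BLOC1S3, at 558 ± 9.45 in KD and 438.7 in WT, was higher by a log2 difference of only 0.35. Its call was lost with equal library totals, with a mean of at least 50 and when any KD library was left out.

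In the neural crest list 18 of 32 genes were tested, of which 8 were lower in KD and 9 higher, with a median log2 difference of 0.04. SNAI2 and EDNRB were tested only through WT and TFAP2B only through KD. Of 8 tested crest specifiers 3 were lower and 5 higher. SNAI2 had 1.90, 0 and 2.22 normalized counts in KD 1, KD 2 and KD 3, against 48.9 in WT (log2 difference -4.57, limma adjusted p = 0.00585, but 0.0574 with no filter), whereas its relative SNAI1 had 1319 ± 99.6 in KD and 564.2 in WT (1.22, adjusted p = 0.000291). TFAP2B had 173.4, 157.8 and 179.0 in KD 1, KD 2 and KD 3 and no read in WT, which puts it at least 50.6-fold higher in KD. POU4F1 (48.6 ± 6.23 in KD, 236.6 in WT) and NR2F1 (172 ± 20.7 in KD, 502.0 in WT) were lower and ISL1 (704 ± 109 in KD, 212.1 in WT) was higher. The neural plate border factors PAX3, PAX7, MSX1 and MSX2 had at most 8.89 normalized counts in any library.

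In the neuron list 29 of 55 genes were tested, of which 15 were lower in KD and 5 higher, with a median of -0.88. SNAP25 and CAMK2A were tested only through WT. Genes of synaptic vesicles and release gave 6 lower and none higher of 8 tested. SYT1, the calcium sensor of vesicle fusion, had 46.7 ± 8.37 normalized counts in KD and 442.1 in WT (log2 difference -3.23, SE 0.32, limma adjusted p = 0.000273). SNAP25 had 0, 4.66 and 3.34 in KD 1, KD 2 and KD 3 and 36.7 in WT, a call lost without KD 3 (adjusted p = 0.0503). CAMK2A, the kinase of excitatory synapses, had 4.96 ± 3.36 in KD and 95.5 in WT (log2 difference -4.18, SE 0.80, adjusted p = 0.00442, but 0.0599 with no filter).

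Other neuronal genes did not share this direction. INA (1223 ± 156 normalized counts in KD, 324.3 in WT), MAP2 (2568 ± 518 in KD, 1007 in WT) and HOMER1 (2785 ± 157 in KD, 1142 in WT) were higher in KD. Of other neuronal markers, the tubulin gene TUBB3 had 18.6 ± 8.36 normalized counts in KD and 86.6 in WT and was lower in KD, and RBFOX3, which encodes NeuN, had 133 ± 8.61 in KD and 107.7 in WT and was not called. TBR1, a factor expressed with NEUROD6 in cortical neurons, had 11.4, 7.77 and 15.6 in KD 1, KD 2 and KD 3 and 15.5 in WT.

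Over the glutamate and acetylcholine receptor list of 34 genes, which holds the NMDA and muscarinic relatives already described, 20 were tested, 9 were lower in KD and 2 were higher, with a median of -0.82. GRIN2B, GRIN2C, GRIN2D, GRIN3B and CHRM5 are 5 of the 9. GRIK5, which was not called, was tested only through WT. The other lower genes include CHRNA10 (20.1 ± 9.74 normalized counts in KD, 84.4 in WT; a call lost without KD 1 or KD 2) and GRIK1 (51.4 ± 15.2 in KD, 206.6 in WT). The higher ones were the nicotinic subunits CHRNA9, at 388 ± 44.9 in KD and 73.3 in WT (log2 difference 2.38, limma adjusted p = 0.000133), and CHRNA5, at 343 ± 60.7 in KD and 144.4 in WT.

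In the glia list 15 of 20 genes were tested, 5 lower and 5 higher, with a median of -0.49. Of the 5 lower ones 3 were tested only through WT, and AQP4 only through KD. The lower ones include myelin and Schwann cell genes. CDH19, a cadherin of Schwann cell precursors, had no read in KD and 108.8 normalized counts in WT, at least 118-fold lower in KD. MAG had 0.889 ± 0.801 in KD and 48.9 in WT, and SLC1A2 of astrocytes 36.1 ± 13.2 in KD and 144.4 in WT. MBP, a myelin gene, was higher, at 5732 ± 406 in KD and 2595 in WT (log2 difference 1.14, limma adjusted p = 0.000253), as were PMP22 (429 ± 19.2 in KD, 219.9 in WT) and CLDN11 (218 ± 34.7 in KD, 90.0 in WT; call lost with equal library totals). AQP4, at 22.7, 23.3 and 15.6 in KD 1, KD 2 and KD 3, against 4.44 in WT, was higher but lost its call without KD 1 or KD 2, with equal library totals (adjusted p = 0.054) and with DESeq2 (0.0852).

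The last lists hold markers of blood cells and of ovarian carcinoma, and their directions differed. Of 23 blood genes 15 were tested, and 14 were lower in KD and none higher, with a median of -4.18. Of the 14, 8 were tested only through WT, so this count and median are partly set by the filter, and HBG2, with reads in KD alone, was not tested. Their summed level was 472.0, 461.6 and 471.4 normalized counts in KD 1, KD 2 and KD 3, against 16537 in WT. The globin genes HBB, HBA2 and HBA1 and the neutrophil receptor gene FCGR3B had no read in KD and 12412, 1735, 241.0 and 216.6 normalized counts in WT. Of the ovarian carcinoma list all 21 genes were tested, 4 lower in KD and 15 higher, with a median of 0.76. MUC16, PAX8, MSLN and CDH1 were the lower ones, although MSLN lost its call under median-of-ratios scaling (adjusted p = 0.13) and when no gene was filtered (0.063). CDH1 lost its call when any KD library was left out, with TMM scaling (adjusted p = 0.0925), with median-of-ratios scaling (0.526), with no filter (0.162) and with DESeq2 (0.166). KLK6 (639 ± 24.5 in KD, 53.3 in WT), FOLR1 (228 ± 10.8 in KD, 64.4 in WT), KRT18 (10652 ± 203 in KD, 3373 in WT) and SOX17 (3035 ± 25.1 in KD, 1080 in WT) led the higher ones. The part of these markers in the values of the 8 genes was not tested.

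**Figure D4:**
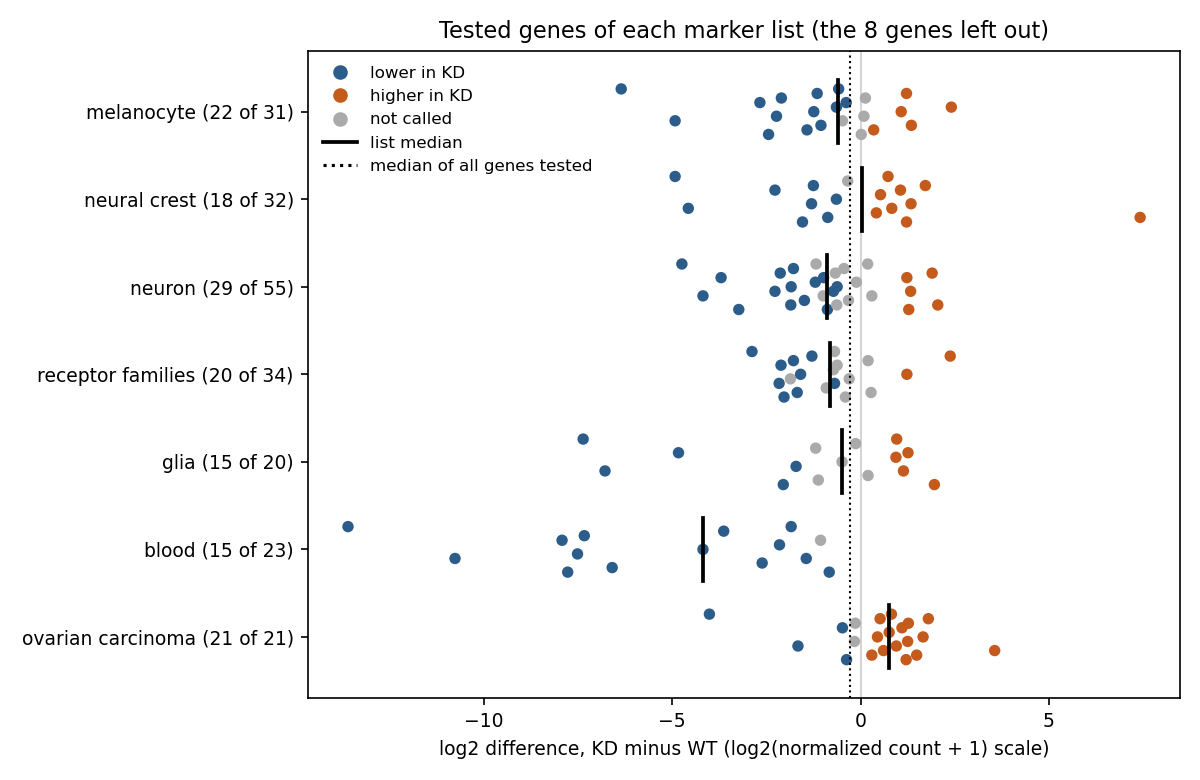
KD minus WT differences on the log2(normalized count + 1) scale for the tested genes of 7 marker lists, with the number tested of the number listed beside each name. Blue points were lower in KD, orange points higher and grey points not called by limma. The black bar is the list median and the dotted line the median of all tested genes (-0.28). The median of the tested protein-coding genes was 0.28. The blood list lies farthest to the left with a median of -4.18, 8 of its 15 tested genes having passed the filter through WT alone, and the melanocyte, neuron, receptor and glia lists have both lower and higher genes.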

How the data were processed

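Total RNA of 4 libraries was sequenced. The libraries were depleted of ribosomal RNA and marked by strand with dUTP, per the labels' protocols. The submitters' processing notes name the aligner STAR 2.7.11b, the counter featureCounts 2.0.6, DESeq2 and build hg38. The annotation release, the strand setting and the handling of multi-mapping reads were not given in the sources used here. Each library has 1 deposited table of signal values, which are normalized read counts per gene. Multiplied by 1 factor per library, 100% of them gave a whole number with a tolerance of 0.001 reads, and reads were recovered this way. The factors are 1.0551, 1.2869 and 0.8995 for KD and 0.9003 for WT. No value column of other samples was present.

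Libraries were compared with limma 3.58.1 (limma-trend, R 4.3.3, two-sided) on log2(normalized count + 1). It was run on 23344 genes averaging 10 or more normalized counts over the 4 libraries, with p-values adjusted by Benjamini-Hochberg and called under 0.05. The spread comes from the 3 KD libraries, and the lone WT library is assumed to vary like them. edgeR 4.0.16 and DESeq2 1.42.0 on recovered reads, other scalings, pseudocounts and filters, and leaving out each KD library were alternatives. Differences on this scale understate the change of low genes. Pooled ratios are reads over summed factors, with exact conditional binomial intervals. Positions and exonic lengths are from GENCODE 29 (GRCh38), which held 92.9% of the gene identifiers. Promoter windows are from RefSeq (GRCh38.p14).

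The 8 genes and the 7 lists were chosen with earlier results of these data known. Genes named are the 8, their family relatives and neighbours, up to 4 lower and 4 higher called genes of each list by size of difference, the 3 protein-coding genes nearest in pattern to each of the 8, and checks of the labels. Other list genes (TYR, TYRP1, DCT, KIT, ERBB3, NEUROG1, NEUROG2, PAX3, PAX7, MSX1, MSX2, MLPH, MYO5A, BLOC1S3, TUBB3, RBFOX3, HBG2 and TBR1) were named after their values were seen. Some genes that the rule names are not reported here.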

Additional observations from a re-analysis of the deposited data

How the results depend on the processing

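With equal library totals 12735 genes were lower in KD and 4701 higher, against 8465 and 7329 as deposited, and the median difference of the 8 genes was -5.47 against -4.92. MITF reversed, from a log2 difference of 0.13 to -0.43. In the lists, equal totals gave 5 higher neural crest genes, 9 lower and 2 higher glia genes, and 7 lower and 8 higher ovarian carcinoma genes. Higher receptor genes numbered 4 with TMM scaling, median-of-ratios scaling, edgeR or DESeq2, and 1 with no filter. Ovarian carcinoma genes numbered 2 lower with median-of-ratios scaling, and 2 lower and 9 higher with no filter. A mean of at least 50, which tests fewer genes, gave 5086 lower genes, 3 lower glia genes and a median of -2.47 for those of the 8 that remained. A pseudocount of 5 gave a median of -3.87. Leaving out 1 KD library gave medians of -4.83 to -4.62 for the 8 genes and 0 to 1 higher blood genes, the 1 without KD 1. Where not stated, the cause was not tested. The other list and gene counts stayed within 1.5 times the values reported. Of 61 named genes with a call, edgeR kept 61, DESeq2 57 and the fit with no filter 45. No paired analysis was possible because WT has 1 library and shares no set number with KD. With 1 WT library, how WT cultures vary cannot be seen, and levels under about 3 reads cannot be told from 0.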
